A study of Rattus norvegicus with 12 samples.

Results

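The Hox genes measured in cultured rat nucleus pulposus cells are described here. They were taken as every gene whose symbol is Hox followed by a cluster letter from A to D and a paralog number, which found 20 of the 13546 genes listed in at least 1 of the 3 deposited tables. Primary cells were grown out from nucleus pulposus explants of Wistar rat spines, a soft tissue at the centre of each intervertebral disc. They were transduced by lentivirus either with a control vector (PLKO) or with a TonEBP knockdown construct (shTon). They were then kept without cytokine (CTR) or exposed to TNF-a at 50 ng/mL over the last 24 h of culture (TNF). The groups PLKO_CTR, PLKO_TNF, shTon_CTR and shTon_TNF held 3 libraries each, numbered as set 1, set 2 and set 3, so each set held 1 library of every group. The labels do not say what a set is (an animal, a pool, a spinal level or a day) or give an age or sex, and all groups shared the strain, the culture and lentiviral transduction. TNF-a is an inflammatory cytokine raised in degenerating discs, and TonEBP (gene Nfat5) is a transcription factor that cells need under osmotic stress.

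Hox genes encode homeodomain transcription factors that give cells their address along the head to tail axis. They lie in 4 clusters, and within a cluster the genes with low paralog numbers are expressed further forward and those with high numbers further back, paralog group 13 marking the tail end of the trunk and the distal parts of limbs and the genital region. Fibroblasts taken from different body sites keep much of their Hox pattern in culture, held by Polycomb and Trithorax chromatin complexes, so the pattern is often read as a record of where cells came from. HOX proteins bind DNA together with TALE cofactors of the PBX, MEIS and PKNOX families, and CDX proteins help switch on trunk and posterior Hox genes in the embryo.

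The members were Hoxa3 of cluster A, Hoxb2 to Hoxb9 of cluster B, Hoxc4, Hoxc5, Hoxc6, Hoxc8, Hoxc9 and Hoxc10 of cluster C, and Hoxd4, Hoxd8, Hoxd9, Hoxd10 and Hoxd13 of cluster D. They cover paralog groups 2 to 10 and 13. Of the 20 genes, 18 were listed in all 3 tables and passed the filter of a mean of at least 10 normalised reads. Hoxa3 and Hoxb5 were listed in 2 tables, which hold 9 of the 12 libraries, and did not pass. Hoxa3 ranged from 0.628 to 8.31 normalised reads with a median of 3.77, and Hoxb5 from 1.88 to 12.5 with a median of 5.65. Normalised reads are read counts divided by a size factor of each library. They are not divided by transcript length, so levels are compared between libraries for 1 gene and not between genes.

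The sequence before the start of 3 HoxD genes is shown because Hoxd13 and its neighbours in this cluster moved in opposite directions between sets, as described below. RefSeq's table for the assembly GRCr8 gave a start for 7 of the 20 genes (Hoxa3, Hoxc4, Hoxd4, Hoxd8, Hoxd9, Hoxd10 and Hoxd13), and its gene order along chromosome 3 is Hoxd13, Hoxd12, Hoxd11, Hoxd10, Hoxd9, Hoxd8, Hoxd4, Hoxd3, Hoxd1. Each line gives the 250 bases before the start, 5′ to 3′ on the plus strand, at chr3:79977827-79978076 for Hoxd13, chr3:80001697-80001946 for Hoxd10 and chr3:80021636-80021885 for Hoxd4. Capitals mark every match to TTTAT or its reverse complement ATAAA, letters found at the core of sites bound by posterior HOX and by CDX proteins.
Hoxd13: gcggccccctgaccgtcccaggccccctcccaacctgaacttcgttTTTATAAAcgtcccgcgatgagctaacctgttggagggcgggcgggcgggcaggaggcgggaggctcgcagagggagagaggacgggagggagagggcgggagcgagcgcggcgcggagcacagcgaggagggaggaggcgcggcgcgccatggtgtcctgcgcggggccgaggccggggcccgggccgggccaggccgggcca
Hoxd10: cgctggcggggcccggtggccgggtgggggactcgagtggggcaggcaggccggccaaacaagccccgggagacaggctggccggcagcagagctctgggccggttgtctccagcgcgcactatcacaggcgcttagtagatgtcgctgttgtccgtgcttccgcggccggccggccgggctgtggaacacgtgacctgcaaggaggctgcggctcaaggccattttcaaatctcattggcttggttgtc
Hoxd4: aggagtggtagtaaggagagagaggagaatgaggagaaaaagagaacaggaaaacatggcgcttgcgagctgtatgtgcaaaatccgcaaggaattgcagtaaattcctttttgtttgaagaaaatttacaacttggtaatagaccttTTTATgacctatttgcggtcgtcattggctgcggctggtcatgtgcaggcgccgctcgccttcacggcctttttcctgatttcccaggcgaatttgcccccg
Hoxd13 held 2 matches, beginning 204 and 201 bases before the start and overlapping each other, Hoxd4 held 1 match at 102 bases, and the other 5 genes with a window, Hoxd10 among them, held none. Of all 33469 windows of the table, 39.3% held the same letters on either strand, so a match is common. A second motif, the joint PBX and HOX site TGATTNAT (ATNAATCA on the other strand), was in none of the 7 Hox windows and in 2.82% of all windows. The window before Hoxd13 was 74.8% G or C with 30 CG pairs, that before Hoxd10 67.2% with 21, and that before Hoxd4 47.2% with 12. These letters describe the reference and were not tested against the measurements.

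The 12 libraries held from 7160042 to 18646798 reads on the listed genes. Labels were checked with Nfat5, the target of the shRNA. In PLKO_CTR it had 685, 1363 and 1818 normalised reads in sets 1, 2 and 3, in PLKO_TNF 642, 1092 and 483, in shTon_CTR 458, 457 and 288, and in shTon_TNF 1695, 500 and 232. The library labelled shTon_TNF set 1 thus had more Nfat5 than its PLKO_TNF partner, against its label, and the main Hox results that it enters are given again without it. Other genes were also high in this library. Kmt2d had 1902 normalised reads there and at most 924 elsewhere. Kmt2a, Kmt2b, Ash1l and Kdm6b were highest there too, but Men1, Ash2l, Wdr5 and Kdm6a were not. Whether its Nfat5 level comes from a wrong label or a wider shift of the library was not tested. Sets also differed in cell type markers. Of 17 skeletal muscle genes, 14 were listed in all tables. Their summed level was 42499 to 97246 normalised reads in the 4 libraries of set 1. It was 16452 to 29930 in set 2 and 171 to 256 in set 3, where Myog was at 0 in every library. Des did not follow the sum between sets 2 and 3: it had 36.3 to 53.4 in set 2 and 81.1 to 201 in set 3. The 6 fibroblast genes summed to 49641 to 89899 in set 1, 74184 to 130674 in set 2 and 15097 to 28380 in set 3; 5 of the 6 were higher and 1, Pdgfra, lower in set 1 than in set 3. Of 13 markers of nucleus pulposus and notochord, 8 were listed and 6 tested, and they did not move together: 2 were higher and 2 lower in set 1 than in set 3. Krt8 ranged from 64.2 to 209 in sets 1 and 2 and from 1329 to 2278 in set 3. Car3 ranged from 6443 to 13348 in set 1, from 2680 to 4741 in set 2 and from 3.03 to 45.8 in set 3. That is the same order of sets as the summed skeletal muscle level. T, Shh, Noto and Krt19 were among the 13 markers looked for and were not listed under those symbols.

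**Figure D1:**
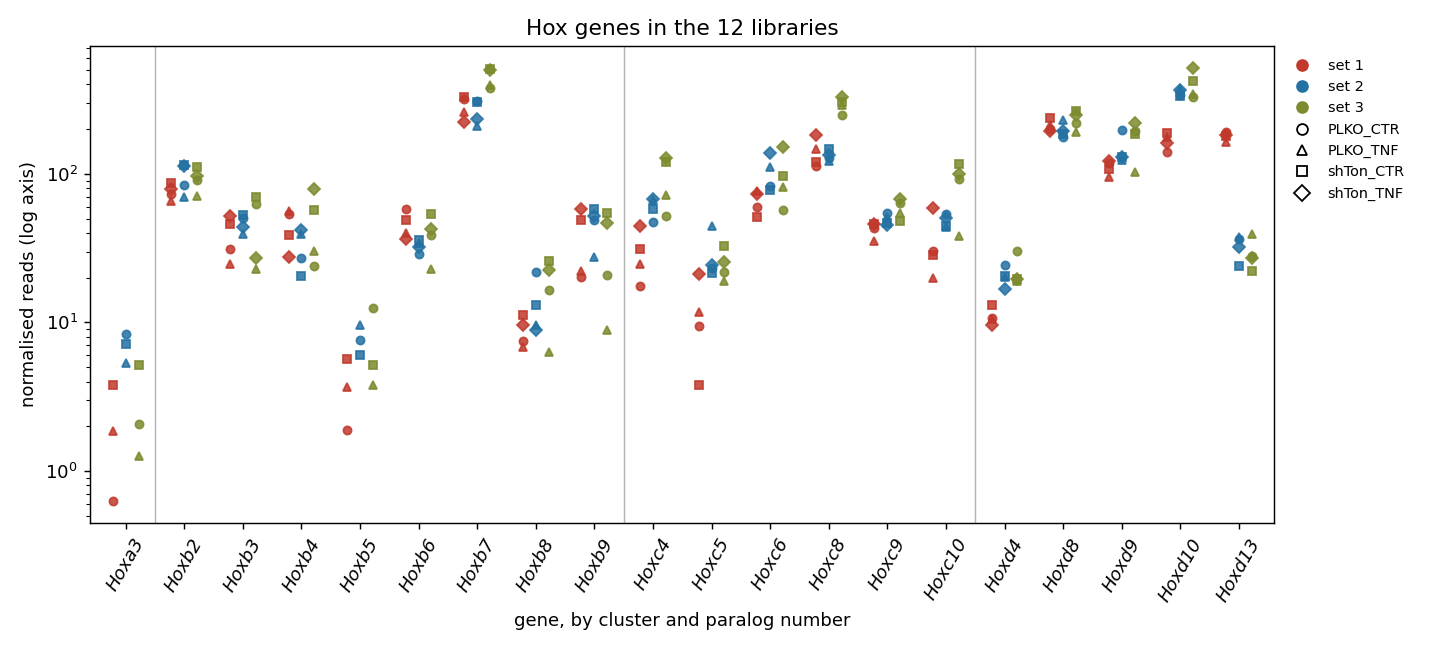
Normalised reads (log axis) of the 20 Hox genes in each library, by cluster and paralog number, coloured by set and with a symbol for each group. The red points of set 1 stand far above the others at Hoxd13 and below them at Hoxc4, Hoxd4 and Hoxd10; Hoxa3 and Hoxb5 have 9 points each.

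Hoxd13, the most posterior gene listed, was higher in set 1 than in the other sets under every treatment. In PLKO_CTR it had 192 normalised reads in set 1 against 36.3 in set 2 and 28.1 in set 3. In PLKO_TNF the values were 165, 37.4 and 39.3, in shTon_CTR 180, 24.0 and 22.1, and in shTon_TNF 184, 32.4 and 27.3. The lowest library of set 1 therefore lay above the highest of the others, and set 1 was 4.41 to 7.50 times set 2 and 4.19 to 8.13 times set 3 within groups. Averaged over the 4 groups, Hoxd13 stood at 180 ± 11.4 normalised reads in set 1 (SD, n = 4), at 32.5 ± 6.06 in set 2 and at 29.2 ± 7.24 in set 3. On the log2 scale set 1 exceeded set 2 by 2.45 ± 0.19 (SE; limma adjusted p = 4.63e-05) and set 3 by 2.61 ± 0.19 (adjusted p = 2.71e-06). Sets 2 and 3 differed by 0.16, with a 95% interval of -0.26 to 0.58 (adjusted p = 0.605). These tests remove the group means and use the spread among libraries of a set; that spread may be technical, since the labels do not say that the libraries of a set came from separate cultures.

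Hoxd10, the next listed gene of the same cluster and also a posterior gene, went the other way. It had 140, 339 and 331 normalised reads in sets 1, 2 and 3 of PLKO_CTR and 176, 373 and 346 in PLKO_TNF. With the knockdown it had 189, 335 and 423 without TNF-a and 162, 365 and 519 with it. All 4 libraries of set 1 lay below the other 8. On the log2 scale the difference of set 1 from set 2 was -1.08 ± 0.14 (limma adjusted p = 0.000582) and from set 3 -1.26 ± 0.14 (adjusted p = 5.82e-05). Hoxd4, an anterior gene of the cluster, had 9.60 to 13.2 normalised reads in set 1, 16.7 to 24.2 in set 2 and 19.0 to 30.2 in set 3. Its set 1 libraries were also all below the others, with differences of -0.83 ± 0.24 from set 2 (adjusted p = 0.0288) and -0.93 ± 0.24 from set 3 (adjusted p = 0.0107). Both Hoxd4 calls rest on few reads, 9 to 32 a library. The call against set 2 was lost by DESeq2 (adjusted p = 0.0551), without the library labelled shTon_TNF set 1 (0.0510) and without any 1 group (0.0642 to 0.141), and the call against set 3 without PLKO_CTR (0.0852) or without set 2 (0.0609).

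Hoxd9 and Hoxd8, between Hoxd10 and Hoxd4, differed less. Hoxd9 had 95.7 to 122 normalised reads in set 1, 125 to 197 in set 2 and 103 to 221 in set 3, so set 1 lay below set 2 and set 3 overlapped both. It was lower in set 1 than in set 3, with a difference of -0.61 ± 0.18 (limma adjusted p = 0.0215), and was not called against set 2 (-0.37, 95% interval -0.77 to 0.04). The call against set 3 was lost without set 2 (adjusted p = 0.0526), PLKO_CTR (0.0737), shTon_CTR (0.110) or shTon_TNF (0.0566). Hoxd8 had 195 to 239 in set 1, 177 to 232 in set 2 and 190 to 267 in set 3; its differences of 0.11 (-0.21 to 0.43) from set 2 and -0.12 (-0.44 to 0.20) from set 3 were not called. In the HoxD cluster, then, the gene of paralog group 13 was higher in set 1, 3 genes of groups 4, 9 and 10 were lower against at least 1 other set, and Hoxd8 was called in neither direction.

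HoxC genes were lower in set 1 wherever set 1 was called against another set. Hoxc4, an anterior gene of the cluster, had 17.6, 47.6 and 52.0 normalised reads in sets 1, 2 and 3 of PLKO_CTR, 24.7, 66.2 and 72.3 in PLKO_TNF, 31.1, 57.6 and 121 in shTon_CTR, and 44.8, 67.7 and 129 in shTon_TNF. No library of set 1 reached those of the other sets. The differences were -1.06 ± 0.21 from set 2 (limma adjusted p = 0.00549) and -1.61 ± 0.21 from set 3 (adjusted p = 0.000189). Hoxc5 had 3.77 to 21.3 in set 1, 21.6 to 44.8 in set 2 and 19.0 to 32.5 in set 3, with differences of -1.38 ± 0.41 (adjusted p = 0.0322) and -1.21 ± 0.41 (adjusted p = 0.0360). Both Hoxc5 calls were lost without any 1 of 3 of the groups. Without shTon_CTR the differences were -1.09 (adjusted p = 0.0983) and -0.68 (0.215), without PLKO_CTR -1.43 (0.0952) and -1.24 (0.0922), and without PLKO_TNF -1.22 (0.124) and -1.40 (0.0555); the call against set 3 was also lost without set 2 (0.0921). In RefSeq's annotation Hoxc6 overlaps both Hoxc4 and Hoxc5, and the sources used here do not say how shared reads or strand were counted, so the split of reads among these 3 genes is uncertain.

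Hoxc8, a gene of the trunk, separated set 3 rather than set 1. It had 112, 128 and 249 normalised reads in sets 1, 2 and 3 of PLKO_CTR, 148, 123 and 290 in PLKO_TNF, 120, 146 and 306 in shTon_CTR, and 181, 135 and 329 in shTon_TNF. All 4 libraries of set 3 were above the other 8. Set 1 and set 2 differed by 0.06 (95% interval -0.27 to 0.38), whereas set 3 was above both: set 1 minus set 3 was -1.08 ± 0.15 (limma adjusted p = 0.000221) and set 2 minus set 3 was -1.13 ± 0.15 (adjusted p = 0.000233). Hoxc10, of the same paralog group as Hoxd10, had 19.8 to 58.7 in set 1, 43.8 to 53.7 in set 2 and 38.0 to 116 in set 3. It was lower in set 1 than in set 3 (-1.31 ± 0.28, adjusted p = 0.00359) and not called against set 2 (-0.58, 95% interval -1.20 to 0.03). Hoxc6 (50.9 to 77.2 in set 1, 78.0 to 138 in set 2, 57.2 to 151 in set 3) and Hoxc9 (35.2 to 46.2, 45.2 to 54.4 and 48.2 to 68.1) were called in no pair of sets. For Hoxc6 the difference from set 2, -0.62 ± 0.21, was near the threshold (adjusted p = 0.0514) and was called by edgeR (adjusted p = 0.0467) and DESeq2 (adjusted p = 0.0340). By limma that difference was not called without the library labelled shTon_TNF set 1 (-0.48, adjusted p = 0.125). Nor was it called without any 1 group (limma adjusted p = 0.0863 to 0.134).

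In cluster B the gene that differed between sets was Hoxb7, a trunk gene. It had 321, 308 and 380 normalised reads in sets 1, 2 and 3 of PLKO_CTR, 260, 210 and 399 in PLKO_TNF, 330, 307 and 510 in shTon_CTR, and 222, 234 and 504 in shTon_TNF. Every library of set 3 was above those of the other sets. Set 1 minus set 3 was -0.67 ± 0.15 (limma adjusted p = 0.00549) and set 2 minus set 3 was -0.76 ± 0.15 (adjusted p = 0.00408). The other 6 tested genes of the cluster, Hoxb2, Hoxb3, Hoxb4, Hoxb6, Hoxb8 and Hoxb9, were called in no pair of sets. Their differences between set 1 and set 3 ran from -0.81 for Hoxb8 (95% interval -1.63 to 0.00) to 0.33 for Hoxb9 (-0.34 to 1.00). Hoxb3 ranged from 22.8 to 70.3 normalised reads over the 12 libraries, Hoxb4 from 20.4 to 78.7, Hoxb6 from 22.8 to 57.8 and Hoxb8 from 6.34 to 26.0. The sets overlapped in each, except that the lowest Hoxb6 value of set 1 (36.3) lay just above the highest of set 2 (36.0). Hoxb2, whose product patterns the hindbrain, ranged from 66.1 to 114 over all 12 libraries and is the most anterior gene listed.

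Over the Hox genes as a list, 9 of 18 (50.0%) were called among sets by the limma F test: Hoxd13, Hoxd10, Hoxc8, Hoxc4, Hoxb7, Hoxc10, Hoxd4, Hoxc5 and Hoxd9, in order of p. The Hoxd9 call of that test (limma adjusted p = 0.0472) was lost without the library labelled shTon_TNF set 1 (0.0780). Of all 12310 genes tested, 45.4% were called, so the share for Hox genes is near the background and a difference between sets is not particular to them. For set 1 minus set 2, 5 Hox genes were called (1 higher, 4 lower) against a background of 24.7% (11.9% higher and 12.7% lower). For set 1 minus set 3, 9 were called (1 higher, 8 lower) against 40.7% (21.8% higher and 18.9% lower), and the median difference over the 18 genes was -0.55 against 0.02 over all genes. For set 2 minus set 3, 2 were called, both lower, against 23.9% (9.96% lower). Set 1 lay wholly above the other libraries for Hoxd13 (5.71% of all genes do) and wholly below for Hoxc4, Hoxd4 and Hoxd10 (4.78% of all genes); set 3 lay wholly above for Hoxb7 and Hoxc8 (4.61% of all genes). No Hox gene had set 2 wholly above (2.24% of all genes) or below (1.32%), or set 3 wholly below (6.36%).

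**Figure D2:**
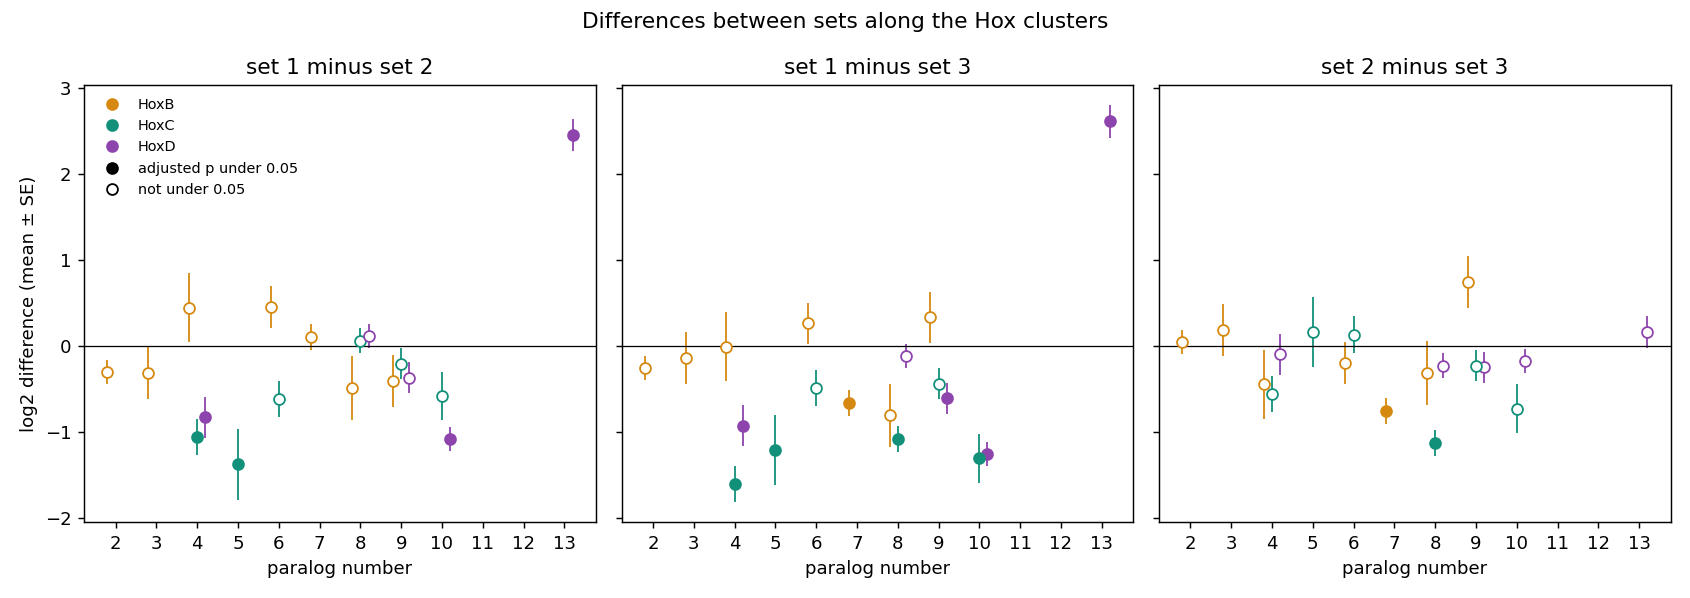
Log2 differences between sets (mean ± SE) against paralog number for the 18 tested Hox genes, coloured by cluster; filled points had a limma adjusted p under 0.05. Hoxd13 at paralog number 13 is the called gene above 0 in both contrasts of set 1, and called genes of groups 4 to 10 lie below 0.

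The Hoxd13 difference was as large without the library labelled shTon_TNF set 1. Without it Hoxd13 was higher in set 1 by 2.43 than in set 2 and by 2.59 than in set 3, and over 13 alternatives, which include leaving out each group, the differences ran from 2.17 to 2.57 and from 2.29 to 2.80. Hoxd10 (-1.17 to -1.0 against set 2, -1.35 to -1.12 against set 3) and Hoxc4 (-1.21 to -0.85 and -1.71 to -1.36) also stayed called in each of those alternatives. Without the same library the set 1 minus set 3 differences were -1.18 for Hoxc8, -0.55 for Hoxb7, -1.54 for Hoxc10, -0.62 for Hoxd9, -0.94 for Hoxd4 and -1.57 for Hoxc5, all still called (limma adjusted p = 0.000211 to 0.0378), and Hoxc5 was -1.74 against set 2 (adjusted p = 0.0117). The summed skeletal muscle level was 42499 to 97246 in set 1, 16452 to 29930 in set 2 and 171 to 256 in set 3. Hoxd13 ranged from 165 to 192, from 24.0 to 37.4 and from 22.1 to 39.3 in the same sets. The part of muscle and fibroblast transcripts in the Hox differences of set 1 was not tested, and in bulk RNA fewer cells of a type and less RNA per cell cannot be told apart.

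Some genes that regulate Hox expression or mark position also differed between sets. Cdx2, a posterior activator of Hox genes, had 122, 3.78 and 26 normalised reads in sets 1, 2 and 3 of PLKO_CTR, 77.2, 14.9 and 24.1 in PLKO_TNF, 106, 8.40 and 14.3 in shTon_CTR, and 61.9, 0.982 and 28.8 in shTon_TNF. Every set 1 library was above the others, as for Hoxd13; set 1 exceeded set 2 by 3.87 ± 0.50 (limma adjusted p = 0.000596) and set 3 by 1.93 ± 0.50 (adjusted p = 0.0111), or by 3.83 and 1.89 without the library labelled shTon_TNF set 1. Unlike Hoxd13, Cdx2 was also lower in set 2 than in set 3 (-1.94 ± 0.50, adjusted p = 0.0173). Of 14 axial patterning genes 5 were listed and tested, and 4 were called among sets, beside 45.4% of all genes: Cdx2, Gdf11, a ligand that sets the trunk to tail transition, and the retinoic acid receptors Rara and Rarg. Gdf11 was higher in set 1 than in set 3 by 1.17 ± 0.18 (adjusted p = 0.000481), but not set apart from set 2. Its means were 125.5, 122.3 and 56.0 normalised reads in sets 1, 2 and 3. Without the library labelled shTon_TNF set 1, set 1 minus set 2 was 0.07 (limma adjusted p = 0.834). Rara (means 345, 360 and 530) and Rarg (603, 782 and 872) instead had their lowest means in set 1.

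Of 32 other positional genes 14 were tested among sets and 10 called, again beside the 45.4% of all genes. Tbx15, a T-box gene of trunk and limb mesenchyme, had 183 to 202 normalised reads in set 1, 82.8 to 112 in set 2 and 37.7 to 79.9 in set 3 (limma adjusted p = 5.30e-05). Barx1, a homeobox gene known from jaw and stomach mesenchyme, had 1.26 to 5.65, 9.61 to 22.8 and 57.1 to 72.9 (adjusted p = 6.08e-05). Tbx3, known from limb patterning, had 135 to 202, 192 to 262 and 31.8 to 43.7 (adjusted p = 9.81e-07), with set 3 far below. The 3 sets did not overlap for Tbx15 and Barx1. Prrx2, Irx3 and Tbx2 followed by p (adjusted p = 0.000411, 0.000490 and 0.00143). Among the 11 TALE cofactors 9 were tested and 6 called among sets, beside the 45.4% of all genes. For set 1 minus set 3, 5 of them were called, 2 higher and 3 lower, beside 40.7% of all genes. Meis2 was 1 of the lower ones (-0.76 ± 0.17, limma adjusted p = 0.00438). Of the chromatin keepers, 4 of 15 Polycomb genes (Rnf2, Ezh1, Ezh2 and Phc1) and 1 of 9 Trithorax and demethylase genes (Wdr5) were called, beside the 45.4% of all genes.

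**Figure D3:**
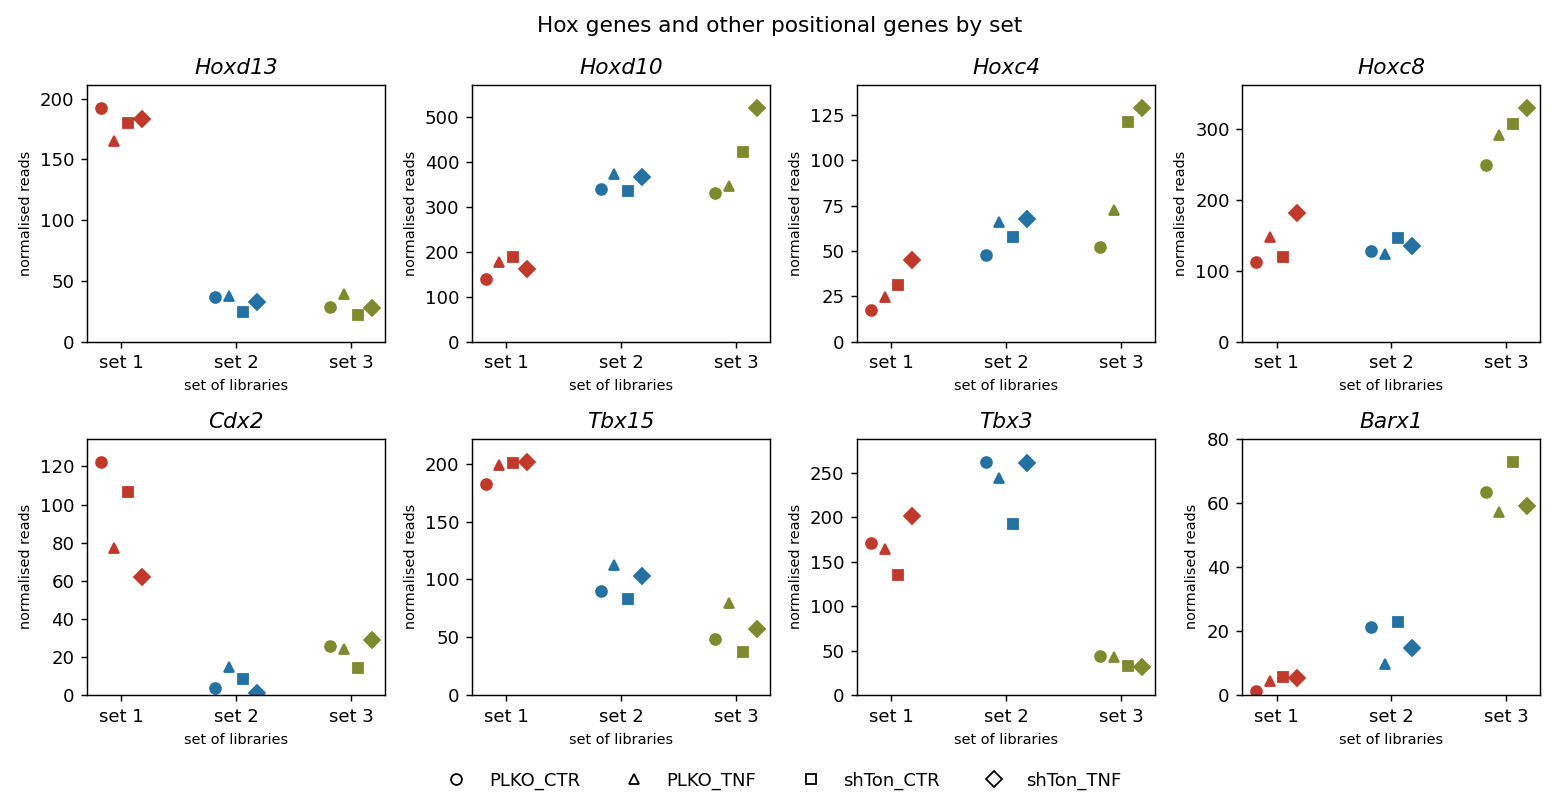
Normalised reads (linear axes from 0) of 4 Hox genes and 4 other positional genes in each library, by set, with a symbol for each group. Hoxd13, Cdx2 and Tbx15 are highest in the 4 libraries of set 1, Hoxd10 and Hoxc4 are lowest there, and Hoxc8 and Barx1 are highest in set 3.

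The design asks next whether TNF-a or the TonEBP knockdown changed Hox expression. With the set as a block, so that treated and control libraries were compared within sets, no Hox gene passed the threshold for TNF-a in PLKO cells. By limma 0 of 18 were called, against 9.62% of all genes; 3 had an unadjusted p under 0.05, and edgeR and DESeq2 also called 0. Hoxd9 came nearest. It had 119, 197 and 196 normalised reads in sets 1, 2 and 3 of PLKO_CTR and 95.7, 125 and 103 in PLKO_TNF, lower in 3 of 3 sets, with a log2 fold change of -0.63 ± 0.17 (adjusted p = 0.0671). Without set 1 the change was -0.79 (adjusted p = 0.0499), and over 11 alternatives the adjusted p ran from 0.0499 to 0.780. Hoxc10 (-0.71, adjusted p = 0.132) and Hoxc6 (0.43, adjusted p = 0.165) were the other genes under an unadjusted p of 0.05. For Hoxd13 the log2 fold change was 0.10, with a 95% interval of -0.42 to 0.62, and for Hoxd10 it was 0.18 (-0.12 to 0.47). The median over the 18 genes was -0.23 against -0.01 over all genes, and 7 of 20 listed Hox genes were lower and 4 higher in all 3 sets. The share of all genes with the same sign in all 3 sets was not counted.

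In shTon cells TNF-a also left 0 of 18 Hox genes called by limma, against 3.28% of all genes; 1 had an unadjusted p under 0.05, and edgeR and DESeq2 called 0. That gene was Hoxc6, with 50.9, 78.0 and 96.3 normalised reads in sets 1, 2 and 3 of shTon_CTR and 73.6, 138 and 151 in shTon_TNF. It was higher in 3 of 3 sets, by 0.66 ± 0.18 (adjusted p = 0.113). Without set 1, whose shTon_TNF library goes against its label, the change was 0.73 (adjusted p = 0.0497), and over 11 alternatives the adjusted p ran from 0.0497 to 1.0. Hoxc6 had also been higher with TNF-a in 3 of 3 sets of PLKO cells.

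Among the genes that work with or regulate Hox genes, some were called with TNF-a in PLKO cells, beside 9.62% of all genes. They were 2 of 9 tested TALE cofactors (1 higher, 1 lower), 1 of 15 Polycomb genes and 1 of 9 Trithorax and demethylase genes. Of the axial patterning genes 1 of 5 was called, and of the other positional genes 0 of 16. Tgif1, a TALE repressor, rose by 0.78 ± 0.16 (limma adjusted p = 0.0309). Phc2 of Polycomb (0.60, adjusted p = 0.0363) and Wdr5 of the Trithorax list (0.47, adjusted p = 0.0443) rose, and Rara fell (-0.87, adjusted p = 0.0172). In shTon cells 1 of 15 Polycomb, 1 of 5 axial patterning and 1 of 15 other positional genes were called, beside 3.28% of all genes. Phc2 rose by 0.72 (limma adjusted p = 0.0438), and Cyp26b1, which degrades retinoic acid, rose by 1.90 (adjusted p = 0.0494). Emx2 of the positional list fell by 0.88 (log2 fold change -0.88, adjusted p = 0.0406). No TALE cofactor was called there by limma. Without set 1 these 3 changes were 0.85, 1.84 and -0.73, each still called (adjusted p = 0.0011, 0.028 and 0.0171).

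The knockdown called 0 of 18 Hox genes by limma without TNF-a, against 0.113% of all genes, and 0 of 18 with TNF-a, against 0.254%. In each case 2 had an unadjusted p under 0.05, and edgeR and DESeq2 called 0. Hoxb9, a trunk gene, came nearest in both. It had 20.1, 49.1 and 20.8 normalised reads in sets 1, 2 and 3 of PLKO_CTR and 49.0, 57.6 and 54.7 in shTon_CTR; with TNF-a it had 22.2, 27.7 and 8.88 in PLKO_TNF and 57.6, 52.0 and 46.9 in shTon_TNF. With TNF-a the 2 groups did not overlap, and without it the set 2 PLKO library lay just above the lowest shTon library. The log2 fold changes were 0.94 ± 0.31 without TNF-a (limma adjusted p = 0.196) and 1.5 ± 0.37 with it (adjusted p = 0.124; 1.58 and 0.0716 without set 1). For Hoxd13 the values were -0.34 (95% interval -0.88 to 0.21) and -0.18 (-0.81 to 0.45). In the authors' deposited tables no Hox gene had an adjusted p under 0.05 either: the lowest were 0.0870 for Hoxd9 with TNF-a, 0.338 for Hoxb9 with the knockdown and 0.0948 for Hoxb9 with the knockdown under TNF-a. The tables give no adjusted p for 4, 5 and 3 of the listed members.

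A contrast added after these values were seen averaged the knockdown over both conditions in 1 fit of the 12 libraries. It called 2 of 18 Hox genes (11.1%), both higher, against 13.5% of all genes (6.38% higher and 7.12% lower), again near the background. Hoxb9 was higher in 6 of 6 shTon and PLKO pairs, by 1.22 ± 0.25 (limma adjusted p = 0.0117), and Hoxc4, also higher in 6 of 6, by 0.66 ± 0.17 (adjusted p = 0.0311). The set 2 pair of Hoxc4 with TNF-a was nearly level, at 66.2 in PLKO_TNF and 67.7 in shTon_TNF. Hoxb2, Hoxb3 and Hoxc8, not called here, were also higher in 6 of 6 pairs. The share of all genes with the same sign in every pair was not counted. With fewer libraries the Hoxb9 and Hoxc4 calls were mostly lost. Hoxb9 stayed called without set 1 (1.18, adjusted p = 0.0381), and when only its library labelled shTon_TNF was dropped (1.16, 0.0211), but not without set 2 (1.55, adjusted p = 0.119) or set 3 (0.92, adjusted p = 0.0796); without set 2 no gene at all was called. Hoxc4 was not called without set 1 (0.58, adjusted p = 0.115), set 2 (0.91, 0.127) or set 3 (0.48, 0.226), nor without the library labelled shTon_TNF set 1 alone (0.59, adjusted p = 0.0557). In that library Nfat5 went against the label, so its side of the comparison rests on the label alone.

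**Figure D4:**
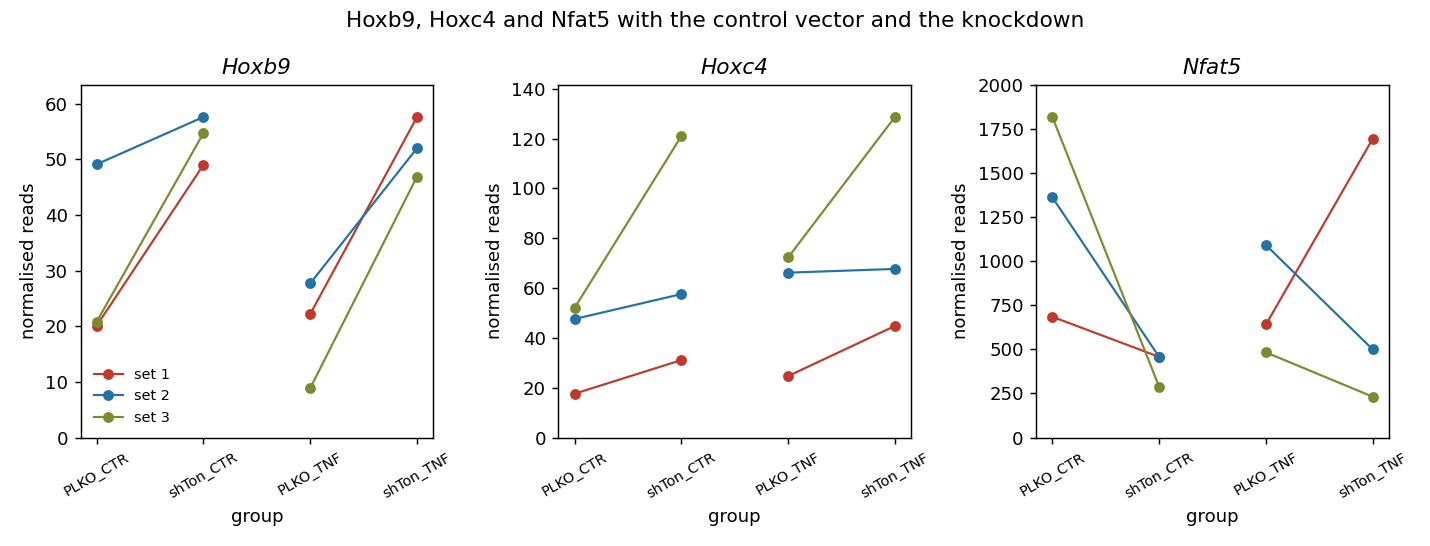
Normalised reads (linear axes from 0) of Hoxb9, Hoxc4 and Nfat5, with a line joining the control and knockdown library of each set without and with TNF-a. Hoxb9 and Hoxc4 are higher in shTon in all 6 pairs, and Nfat5 is lower in 5 of them and higher in set 1 with TNF-a.

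Whether TNF-a acted differently on Hox genes with the knockdown was tested as an interaction. By limma 0 of 18 Hox genes and 0 of 12310 genes were called (0.0%), with an unadjusted p under 0.05 for 2 Hox genes and 219 genes; edgeR and DESeq2 called 0 genes. Those Hox genes were Hoxd9, with a difference of 0.77 between its TNF-a effects (95% interval 0.11 to 1.43), and Hoxc10, with 1.04 (0.04 to 2.04), each with an adjusted p of 0.999. Without the library labelled shTon_TNF set 1 they were 0.77 and 0.74 (adjusted p = 1.0). The 4 treatment comparisons share libraries, so their values for 1 gene are not independent of each other.

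**Figure D5:**
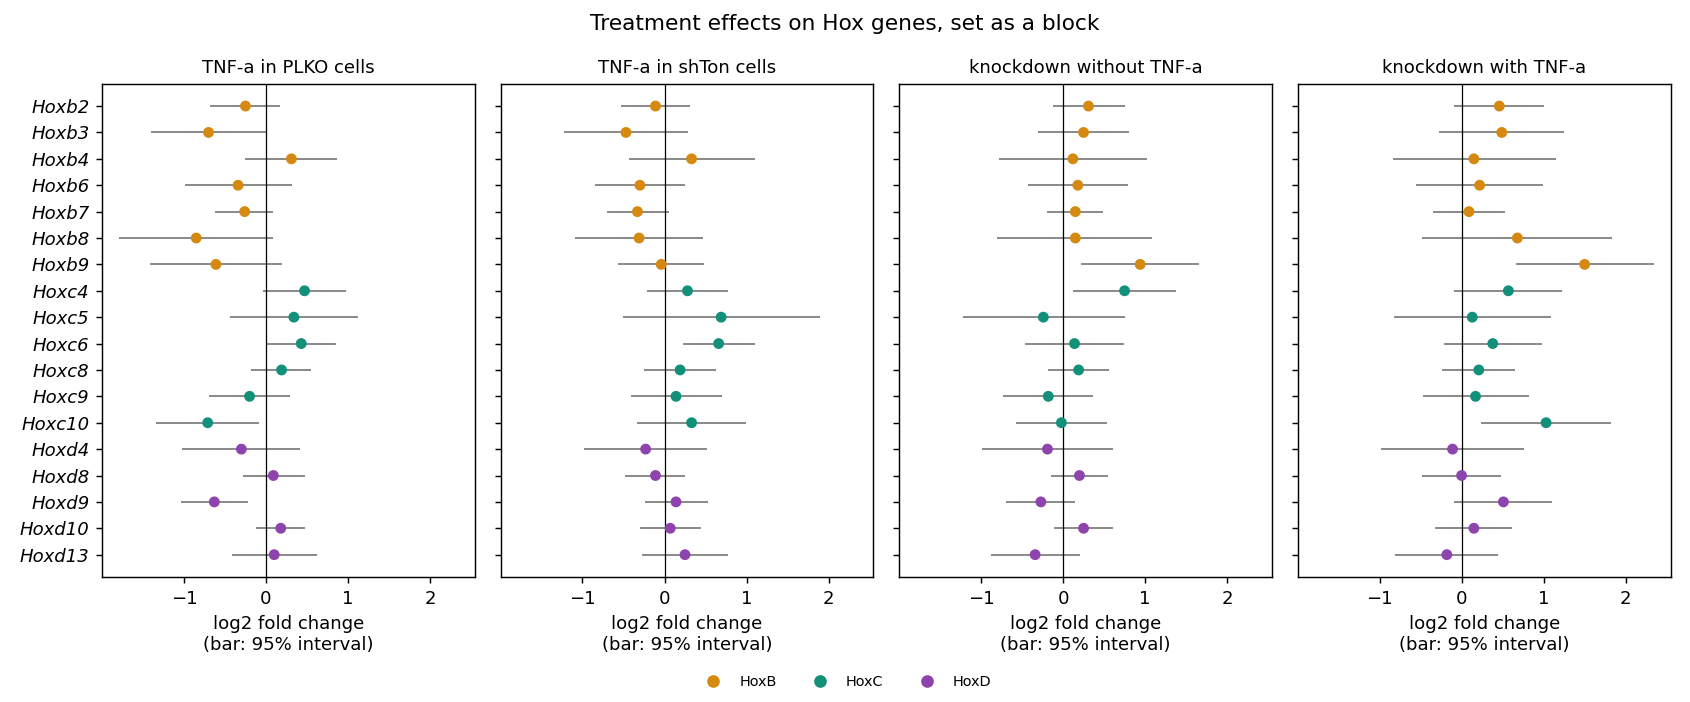
Log2 fold changes with 95% intervals (horizontal axes) of the 18 tested Hox genes in the 4 treatment comparisons, coloured by cluster. Hoxb9 lies farthest above 0 in both knockdown comparisons, and Hoxd9 lies below 0 with TNF-a in PLKO cells; none had an adjusted p under 0.05.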

How the data were processed

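RNA sequencing libraries of cultured rat nucleus pulposus cells, 12 in all, were deposited as 3 tables of 2 groups each. The tools and build named per the submitters' processing notes are Novoalign 2.08.01, DESeq2 and rn5. The sources used here do not name the counting rules or the strand. The deposited signal is normalised reads per gene, and the tables also hold the authors' log2 fold changes and their p-values, raw and adjusted. Every value was a whole multiple of its library's step (tolerance 0.001 reads), so read counts were recovered and, for the 12899 genes common to the tables, scaled jointly with DESeq2 size factors; all printed library values are on this joint scale. TNF-a in PLKO cells and the 2 knockdown comparisons were fitted on the deposited values of their own table, the others on the joint values.

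The main test was limma 3.58.1 (R 4.3.3) on log2(value + 1), with a mean-variance trend, genes of mean at least 10 normalised reads, Benjamini-Hochberg adjustment over all genes tested and a threshold of 0.05 (called). A fold change on this scale understates that of low genes. Treatments were fitted with the set as a block, and sets with the group as a term. Same-numbered libraries deviated together (r 0.609 to 0.889 over 18 pairs, against -0.741 to 0.180 over 36 pairs of different sets). A DESeq2 refit with the set as a term and a prior that shrinks fold changes came close to the authors' deposited log2 fold changes. The median difference was 0.000452, 0.000416 and 0.000607 in the 3 tables. The DESeq2 alternative to the main test used no such prior, so its fold changes are not on the scale of the deposited ones. edgeR 4.0.16, DESeq2 1.42.0, other pseudocounts, filters and scalings and left-out sets or groups were alternatives. All listed members are accounted for; library values are given for the 10 with the smallest p among sets, for those nearest the threshold with a treatment and for neighbours they are compared with, and of other lists at most 6 called genes a comparison; 1 gene of these lists is not reported here. The members and lists were chosen with earlier results of these data known.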

Additional observations from a re-analysis of the deposited data

How the results depend on the processing

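The main counts of genes called were 1190 for TNF-a in PLKO cells, 405 for TNF-a in shTon cells, 14 and 31 for the knockdown without and with TNF-a, 0 for the interaction, 1661 for the averaged knockdown and 5594 among sets; those of Hox genes were 0, 0, 0, 0, 0, 2 and 9. Without the replicate block the counts in the same order were 0, 6, 0, 0, 0 and 0 up to the averaged knockdown, with 0 Hox genes in each. Without the variance trend they were 55, 143, 0 and 0 for the 4 treatment comparisons. DESeq2 gave 627 for TNF-a in shTon cells and 411 and 363 for the knockdown without and with TNF-a. A pseudocount of 0.1 gave 2 and 12 for the knockdown, and a pseudocount of 10 gave 23 without TNF-a. A fit of all 12 libraries gave 696 for TNF-a in PLKO cells, 3 and 444 for the knockdown, and 1 Hox gene (Hoxb9, adjusted p = 0.0457) with TNF-a. With 1 set left out, the counts ran from 545 to 1410 for TNF-a in PLKO cells (545 without set 2; 0 to 1 Hox genes, Hoxd9 without set 1), from 317 to 1105 for TNF-a in shTon cells (1105 without set 1; 0 to 1 Hox genes, Hoxc6 without set 1), from 12 to 283 for the knockdown without TNF-a (283 without set 1, 220 without set 3) and from 32 to 488 with it (488 without set 1, 157 without set 2). For the averaged knockdown, counts with a set or the library labelled shTon_TNF set 1 left out ran from 0 to 1908 (0 without set 2, 576 without set 3), with 0 to 1 Hox genes. Among sets they ran from 2946 to 5918 (2946 without set 1, 3408 without set 2), with 2 to 8 Hox genes (2 without set 1). Leaving out the group shTon_CTR gave 3536 genes among sets, and leaving out PLKO_CTR gave 5 Hox genes there. For set 1 minus set 2, Hox genes called fell from 5 to 3 without PLKO_CTR, without PLKO_TNF or without shTon_CTR. The difference of Hoxc8 between set 1 and set 2, 0.06 and not called, became -0.04 without the library labelled shTon_TNF set 1, -0.01 without PLKO_TNF and -0.07 without shTon_TNF. The cause of these shifts was not tested, except that leaving out libraries removes residual degrees of freedom. With few reads a library, Hoxa3, Hoxb5, Hoxb8, Hoxc5 and Hoxd4 could show only large differences.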
